A study of Mus musculus with 6 samples.

Results

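The expression of 10 genes of pyroptosis was followed in Paneth cells (PCs) after injection of tumour necrosis factor (TNF). The genes were picked by name, matched by Ensembl identifier, and comprise 5 gasdermins (Gsdmd, Gsdme, Gsdmc2, Gsdmc3 and Gsdmc4), 2 inflammatory caspases (Casp1 and Casp4), the adaptor Pycard, the sensor Naip6 and the cytokine gene Il18, 10 of the 55414 genes in the count table. PCs had been sorted from the small intestine of C57BL/6J mice 15 h after injection of phosphate-buffered saline (PBS) or TNF, with 3 PBS and 3 TNF mice giving 1 library each. Every mouse, controls included, was labelled IFNAR1 KO, that is, a knockout of the gene of a type I interferon receptor subunit. The labels give neither the dose of TNF nor the age or sex of the mice, and wild-type mice were not analysed here, so the values describe TNF against PBS in the absence of that receptor.

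Pyroptosis is a lytic form of cell death. Sensors such as the NAIP proteins, which bind bacterial flagellin and secretion system components, assemble inflammasomes, often through the adaptor ASC (encoded by Pycard), and these activate caspase-1. Caspase-1, and caspase-11 (encoded by Casp4 in the mouse) after binding intracellular lipopolysaccharide, cleave gasdermin D, whose freed amino-terminal part forms pores in the plasma membrane, while caspase-1 also matures interleukin-18. In the gut epithelium this machinery is known for expelling infected cells and for interleukin-18 release, and the Gsdmc genes are a cluster of near copies expressed in the mouse intestine.

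Values of the PBS and of the TNF libraries are listed in the order of replicates 1, 2 and 3. Total counts per library ranged from 12747484 to 17039511. Levels are given as CPM (library-size-normalised read counts, after scaling of the libraries with trimmed mean of M-values factors), and at these depths 3 counts, the limit that a count of 0 allows, correspond to 0.147 to 0.255 CPM. TNF replicate 1 stood apart from its group. Its log2 CPM correlated at 0.884 and 0.883 with TNF replicates 2 and 3 but at 0.937 to 0.945 with the PBS libraries (across genes, which are not independent replicates). It was kept as labelled, and tests are given with and without it. TNF replicate 1 was singled out on these same values, as the TNF library most like PBS. Leaving it out therefore favours a wider difference between the groups, and the p-values of that fit tend to be too small. Where a gene is said to rise or fall without TNF replicate 1, this describes the remaining libraries only. The sorted cells had the PC markers (9 of 9 in every library, Lyz1 and Defa24 included), and the lymphocyte markers Cd3g, Cd8a and Jchain had no count in any library.

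The sequence upstream of Casp4, Casp1 and Gsdmd is shown because these 3 genes, the inflammatory caspases and their pore-forming substrate, had higher values in TNF replicates 2 and 3. The 250 bases before the start of the GENCODE canonical transcript were read from GRCm39, 5′ to 3′ on the strand of the gene, all 3 being on the plus strand. They lie at chr9:5308593-5308842 for Casp4, chr9:5298258-5298507 for Casp1 and chr15:75733743-75733992 for Gsdmd. Capitals mark matches on either strand to the NF-kB consensus, the site of the factor through which TNF receptors chiefly act.
Casp4: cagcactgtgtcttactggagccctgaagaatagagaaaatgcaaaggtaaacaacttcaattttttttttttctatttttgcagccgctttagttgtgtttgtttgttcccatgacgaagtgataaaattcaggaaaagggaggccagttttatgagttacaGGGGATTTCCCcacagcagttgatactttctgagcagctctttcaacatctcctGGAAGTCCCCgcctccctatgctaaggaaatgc
Casp1: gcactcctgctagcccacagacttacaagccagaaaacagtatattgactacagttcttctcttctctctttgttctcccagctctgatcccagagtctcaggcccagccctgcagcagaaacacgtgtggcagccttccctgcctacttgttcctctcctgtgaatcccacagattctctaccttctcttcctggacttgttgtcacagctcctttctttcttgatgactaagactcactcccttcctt
Gsdmd: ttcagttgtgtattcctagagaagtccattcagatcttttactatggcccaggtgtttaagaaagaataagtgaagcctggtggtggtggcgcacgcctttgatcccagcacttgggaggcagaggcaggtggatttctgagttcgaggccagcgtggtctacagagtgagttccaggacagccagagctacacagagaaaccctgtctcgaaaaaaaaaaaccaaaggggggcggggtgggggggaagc
Casp4 had 3 matches, of which 2 overlapped each other 87 to 77 bases upstream of the start and the third lay 33 to 24 bases upstream. Among the 10 genes only Casp4 had a match, and Casp1 and Gsdmd had none. Of 21757 protein-coding genes, 7.63% had the NF-kB consensus in the same window. The core of the interferon-stimulated response element, GAAA repeated after a gap of 2 bases (3.32% of genes), and the STAT element TTCNNNGAA (7.70% of genes) were searched on both strands too and were not in these 3 windows. None of the 3 motifs was in the windows of the other 7 genes. A match is a stretch of letters only, and no match says nothing of sites elsewhere.

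Gsdmd, the gene of the pore-forming gasdermin D, was high in TNF replicates 2 and 3 and not in TNF replicate 1. It had 7.07, 8.28 and 7.42 CPM across the PBS libraries against 5.78, 68.8 and 66.4 CPM across the TNF libraries. TNF replicates 2 and 3 thus lay far above every PBS library, whereas TNF replicate 1 lay just below them, so the groups overlapped. Of all genes tested, 6.37% (830 of 13026) had this arrangement, with TNF replicate 1 under and the other TNF libraries over all PBS libraries. Over the 6 libraries Gsdmd averaged 7.59 ± 0.621 CPM in the PBS group and 47.0 ± 35.7 CPM in the TNF group (SD, n = 3), and it did not pass the test (log2 fold change 2.63 ± 0.70 SE by the edgeR quasi-likelihood test, adjusted p 0.278). Without TNF replicate 1 it rose (log2 fold change 3.17, SE 0.20, adjusted p 4.80e-06, with 3.48e-14 to 0.897 over all settings tried), and the fold change itself stayed between 2.02 and 3.17. Gsdmd is on chromosome 15, 75733974 to 75739257 (GRCm39, ENSMUSG00000022575). None of its windows of 100 bases, and 1.71% of its windows of 50 bases, occurred in a transcript of another annotated gene.

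Of the caspases that cleave gasdermin D, Casp1 was higher in all 3 TNF libraries and Casp4 in TNF replicates 2 and 3. Casp1 (ENSMUSG00000025888, chromosome 9, 5298508 to 5307290) had 20.3, 18.3 and 19.7 CPM across the PBS libraries against 33.9, 28.4 and 30.6 CPM across the TNF libraries. It was the 1 member whose groups did not overlap, and TNF replicate 1 was its highest library. Among all tested genes 16.9% had groups that did not overlap, with 9.07% higher and 7.82% lower in TNF. The difference, from 19.4 ± 1.05 CPM to 30.96 ± 2.78 CPM (SD, n = 3), amounted to 0.67 ± 0.20 (SE) on the log2 scale, and the edgeR adjusted p was 0.282. Without TNF replicate 1 the fold change was 0.62 (SE 0.20, adjusted p 0.0572), still short of 5%, and over all settings the adjusted p ran from 0.0343 to 0.897 and the fold change from 0.55 to 0.71.

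Casp4 (ENSMUSG00000033538, chromosome 9, 5308828 to 5336783), which lies downstream of Casp1, had 10.3, 16.9 and 14.03 CPM across the PBS libraries against 12.6, 22.7 and 37.2 CPM across the TNF libraries. TNF replicates 2 and 3 were above all PBS libraries and TNF replicate 1 was among them. Group means were 13.7 ± 3.29 CPM and 24.2 ± 12.4 CPM (SD, n = 3), a log2 fold change of 0.81 ± 0.38 (SE) whose edgeR adjusted p was 0.428. Casp4 rose without TNF replicate 1 (log2 fold change 1.14, SE 0.28, adjusted p 0.0184, with 0.0184 to 0.933 over all settings), and without TNF replicate 3 the fold change was 0.37. Of the transcripts of both caspase genes, 0 of the 1342 windows of 100 bases in Casp4 and 11 of 1432 in Casp1 were shared with another gene, the 11 with a long non-coding RNA on the other strand that was not in the table.

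**Figure D1:**
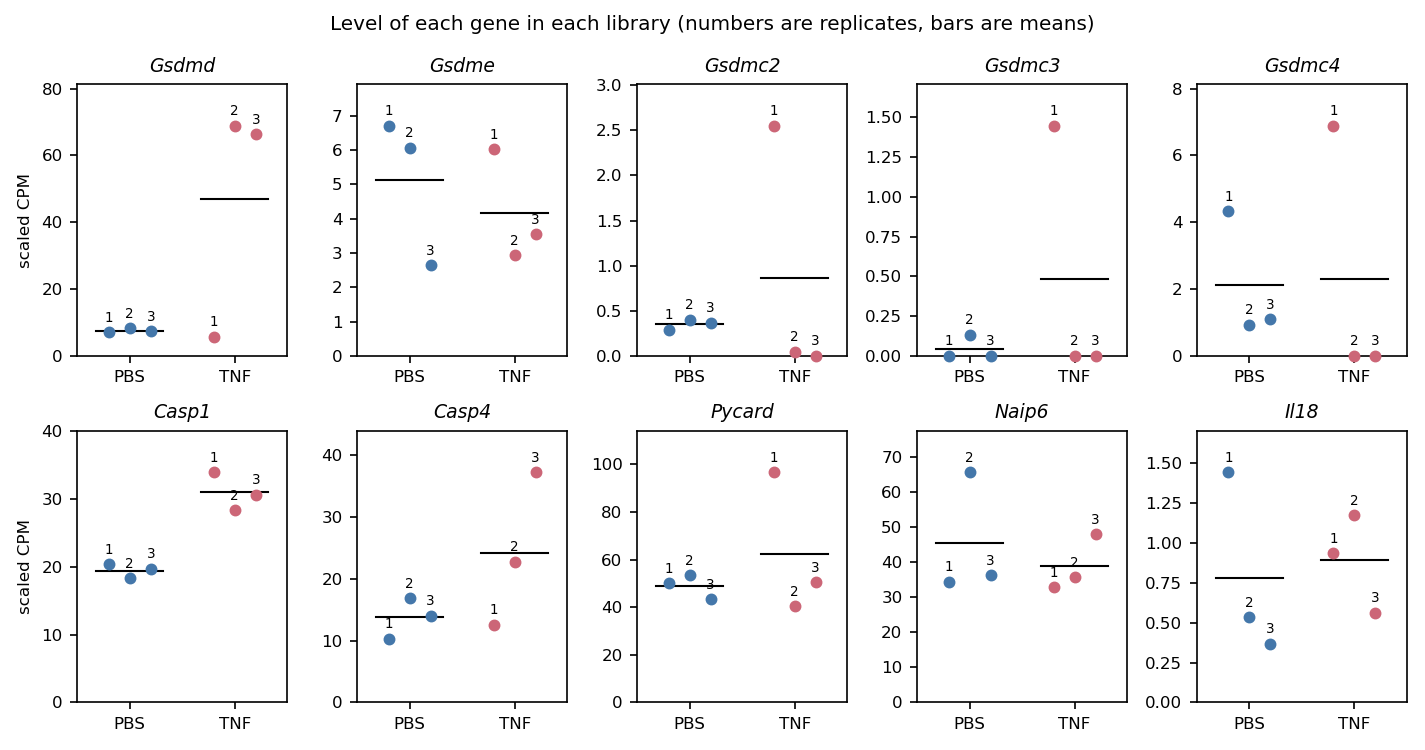
Scaled CPM (y axis, linear from 0, a separate scale for each gene) of the 10 genes in the 3 PBS and 3 TNF libraries, with points numbered by replicate and bars at the group means. Casp1 is higher in all 3 TNF libraries, Gsdmd stands at 68.8 and 66.4 CPM in TNF replicates 2 and 3 only, and the 3 Gsdmc genes are highest in TNF replicate 1 and at 0 or close to it in the other TNF libraries.

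Gsdmc4, and the sum of Gsdmc2, Gsdmc3 and Gsdmc4, ran the other way in TNF replicates 2 and 3. The 3 genes lie next to each other on the minus strand of chromosome 15, Gsdmc2 at 63696195 to 63717026, Gsdmc3 at 63729573 to 63750407 and Gsdmc4 at 63763113 to 63784146. Their canonical transcripts were 92.8% (Gsdmc3 and Gsdmc4) to 97.2% (Gsdmc2 and Gsdmc3) identical. Of their windows of 100 bases, 24.8% (Gsdmc2), 30.5% (Gsdmc3) and 20.2% (Gsdmc4) were also found in another Gsdmc gene. For windows of 50 bases these shares were 47.7%, 46.9% and 39%, so the counts of each gene are uncertain. The fourth gene of the cluster, Gsdmc, had no count in any library.

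Gsdmc4 (ENSMUSG00000055748) had 60, 14 and 15 counts in PBS replicates 1 to 3, and 81, 0 and 0 counts in TNF replicates 1 to 3. Gsdmc2 had 4, 6 and 5 counts in PBS and 30, 1 and 0 counts in TNF. Gsdmc3 had 0, 2 and 0 counts in PBS and 17, 0 and 0 counts in TNF. All 3 genes were highest in TNF replicate 1 and lowest, at 1 count or none, in TNF replicates 2 and 3 (shared there, for Gsdmc3, with PBS replicates 1 and 3). Among the PBS libraries, replicate 1 had the most Gsdmc4. Gsdmc2 and Gsdmc3 were under the count filter and were not tested, and Gsdmc3 had too few PBS counts to show a direction in TNF replicates 2 and 3.

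Since they can share reads, the 3 genes were also summed into 1 feature. The sum was 4.62, 1.47 and 1.47 CPM across the PBS libraries against 10.9, 0.0489 and 0 CPM across the TNF libraries. Over 6 libraries the direction was set by TNF replicate 1 (log2 fold change 0.51 ± 1.47 SE by edgeR, adjusted p 0.911). Without TNF replicate 1 the sum fell (log2 fold change -6.04, SE 1.25, adjusted p 0.00862), as did Gsdmc4 alone (edgeR log2 fold change -7.99, SE 1.76, which depends on the prior count since both TNF libraries are at 0, adjusted p 0.0136, with 0.0136 to 0.989 over all settings). As counts, the 3 PBS libraries held 106 reads of the cluster and TNF replicates 2 and 3 held 1, a ratio of 82.0 after scaling, with an exact 95% interval of 14.4 to 3271 that covers counting error only. For Gsdmc4, with 89 counts against 0, the pooled PBS level was at least 23.0-fold that of TNF replicates 2 and 3, with 3 counts as their limit. That limit holds for the pool only, as 60 of the 89 counts came from PBS replicate 1 and 14 and 15 from PBS replicates 2 and 3. TNF replicate 1, with 81 counts, is not part of this ratio. The arrangement of Gsdmc4, with TNF replicate 1 over and the other TNF libraries under all PBS libraries, was seen in 5.73% (747) of genes tested.

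Several markers of other epithelial cells were also low in TNF replicates 2 and 3, and in sorted bulk cells fewer cells of a type and less RNA per cell cannot be told apart. When TNF replicate 1 was left out, 3 of 4 stem cell markers, 7 of 12 enterocyte markers and 4 of 7 goblet cell markers fell and none rose, against 5.4% of all genes lower. Of the 6 tuft cell and 6 enteroendocrine cell markers, 0 passed 5% in that fit. Lgr5 of the stem cell list did not pass either (log2 fold change -0.25, edgeR adjusted p 0.571). Nor did Muc2 (0.46, adjusted p 0.402), Spdef (0.34, adjusted p 0.384) and Agr2 (-0.28, adjusted p 0.636) of the goblet cell list. In TNF replicate 1, where the Gsdmc genes were highest, the stem cell, enterocyte and goblet cell lists differed. The stem cell markers summed to 2123 to 2590 CPM in PBS, 4095 CPM in TNF replicate 1, and 361 and 373 CPM in TNF replicates 2 and 3. Most of that sum was Olfm4, the only stem cell marker above every PBS library in TNF replicate 1. The enterocyte markers summed to 342 to 385 CPM in PBS against 290, 143 and 102 CPM across the TNF libraries, lower in every TNF library, as were 6 of the 12 markers (Alpi, Apoa1, Apoa4, Apob, Sis and Lct), while Fabp2 was highest in TNF replicate 1 (91.4 CPM) and Fabp1 did not fall (log2 fold change 0.35, edgeR adjusted p 0.807 without TNF replicate 1). The goblet cell markers summed to 4829 to 5124 CPM in PBS against 4905, 4003 and 4257 CPM across the TNF libraries, and Clca1 among them had 32.04 to 66.3 CPM in PBS against 302, 9.05 and 18.1 CPM. Of the 9 PC markers, Clps fell and Nupr1 and Pla2g2a rose without TNF replicate 1 (edgeR log2 fold changes -2.13, 2.11 and 1.41), and Mmp7 was higher in all 3 TNF libraries. The part of these cells in the values of the Gsdmc genes was not tested.

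Gsdme (ENSMUSG00000029821, chromosome 6, 50165868 to 50240842), the gene of another pore-forming gasdermin, had 6.71, 6.07 and 2.65 CPM across the PBS libraries against 6.03, 2.94 and 3.54 CPM across the TNF libraries. The libraries of both groups were interspersed, and Gsdme did not pass the test (log2 fold change -0.31 ± 0.47 SE by edgeR, adjusted p 0.822, and -0.65, SE 0.47, adjusted p 0.408 without TNF replicate 1). Gsdme overlaps Pals2 on the other strand, with 5.46% of its windows of 100 bases in common, and the use of strand in counting is not known, so some of these reads may belong to Pals2.

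**Figure D2:**
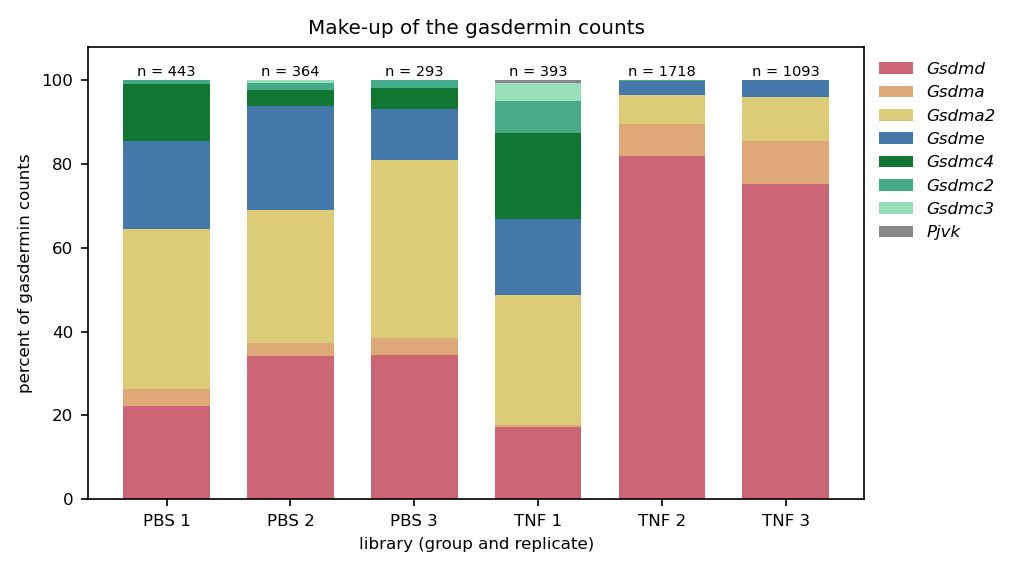
Percent of all gasdermin counts (y axis) taken by each gasdermin gene in each library (x axis), with the number of gasdermin counts above each bar, where Gsdma3 and Gsdmc had no count. Gsdmd takes 81.9% and 75.4% in TNF replicates 2 and 3 and 17.3% in TNF replicate 1, where the 3 Gsdmc genes are at their widest.

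The share of Gsdmd among the counts of all gasdermins does not depend on scaling between libraries. Gsdmd took 22.1% (exact 95% interval 18.3 to 26.3), 34.1% (29.2 to 39.2) and 34.5% (29.0 to 40.2) of gasdermin counts in PBS replicates 1 to 3. In TNF replicates 1 to 3 it took 17.3% (13.7 to 21.4), 81.9% (80.0 to 83.7) and 75.4% (72.7 to 77.9). TNF replicate 1 was the lowest of the 6 libraries and the other TNF libraries the highest. The difference of means was 27.98 percentage points (exact permutation p 0.4, two-sided, where 0.1 is the smallest p that 3 against 3 libraries allow). Gsdma2 took 31.6% to 42.3% of the counts in the PBS libraries, 31.04% in TNF replicate 1, and 6.93% and 10.3% in TNF replicates 2 and 3, while its own level was 7.68 to 12.3 CPM in PBS against 5.82 to 10.4 CPM in TNF.

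The adaptor Pycard (ENSMUSG00000030793, chromosome 7, 127588558 to 127593039) had 49.99, 53.5 and 43.4 CPM across the PBS libraries against 96.6, 40.4 and 50.4 CPM across the TNF libraries. TNF replicate 1 was well above the other 5 libraries, which were close together. The log2 fold change was 0.35 ± 0.31 (SE) with an edgeR adjusted p of 0.680, and it turned to -0.09 (SE 0.20, adjusted p 0.813) without that library. Naip6 (ENSMUSG00000078942, chromosome 13, 100417629 to 100454182) had 34.3, 65.5 and 36.2 CPM across the PBS libraries against 32.7, 35.7 and 47.9 CPM across the TNF libraries. PBS replicate 2 was the highest, and the other libraries of both groups lay together (log2 fold change -0.23 ± 0.29 SE by edgeR, adjusted p 0.786, -0.10, adjusted p 0.858, without TNF replicate 1, and 0.13 without PBS replicate 2). Of the windows of 100 bases in Pycard, 9.59% were shared with Gm45205, which overlaps it on the other strand and had 76 counts over all libraries. In Naip6 6.37% of such windows were shared, mainly with Naip5, and 21.7% of its windows of 50 bases.

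Il18 (ENSMUSG00000039217, chromosome 9, 50466081 to 50493633), the substrate of caspase-1, was close to the limit of detection. It had 20, 8 and 5 counts in PBS replicates 1 to 3 and 11, 24 and 7 counts in TNF replicates 1 to 3, that is, 0.367 to 1.44 CPM in PBS against 0.564 to 1.17 CPM in TNF. The groups overlapped, and a change was not detectable at this depth (log2 fold change 0.20 ± 0.78 SE by edgeR, adjusted p 0.936, and 0.19, adjusted p 0.924, without TNF replicate 1), with its sign turning when PBS replicate 2, PBS replicate 3 or TNF replicate 2 was left out.

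**Figure D3:**
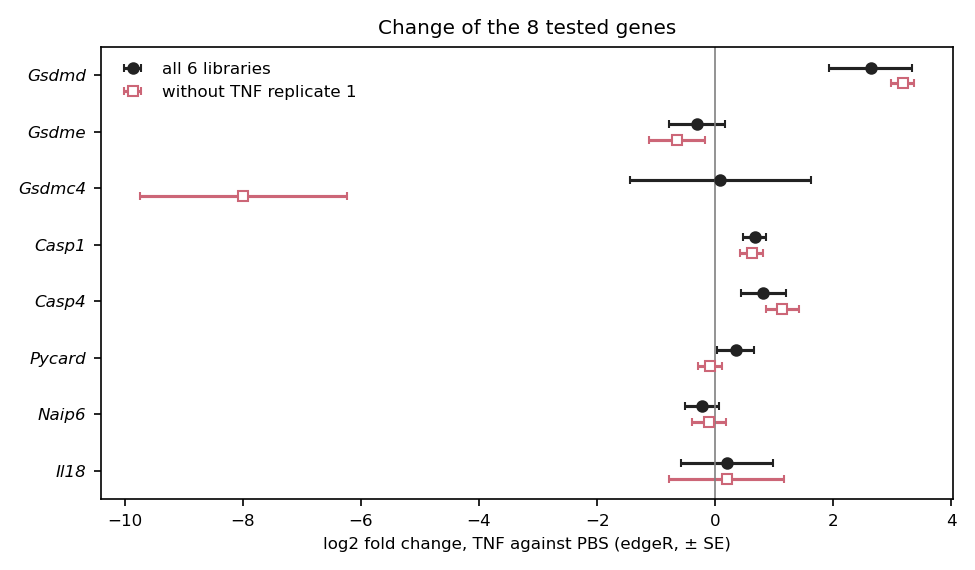
Log2 fold change of TNF against PBS (x axis, edgeR, bars are ± SE) for the 8 tested genes, with all 6 libraries (filled circles) and without TNF replicate 1 (open squares). Gsdmd, Casp1 and Casp4 lie above 0 in both fits, Gsdme and Naip6 lie below 0, and Pycard moves from 0.35 to -0.09. Il18 lies at 0.20 and 0.19 with wide bars (SE 0.78 and 0.98). Gsdmc4 moves from 0.09 to -7.99, a fitted value that depends on the counts of 0 in TNF replicates 2 and 3.

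Of the 10 genes, 8 passed the count filter, and 0 passed 5% over the 6 libraries, where 0% of all 13026 genes passed (edgeR, smallest adjusted p 0.270). At an unadjusted p under 0.05 there were 2 of the 8 (Gsdmd and Casp1), against 12.3% of all genes. DESeq2 gave 0 of the 8, against 1.71% of all genes (1.43% higher and 0.284% lower), but it set no adjusted p for Gsdmc4 and Il18. Dropping the count filter gave 1 of 10 (Gsdmd, higher), against 2.94% of all genes (2.1% higher and 0.849% lower). The limma-voom fit with sample weights gave 3 of 8 (Gsdmd, Casp1 and Casp4, higher), against 11.5% (7.06% higher and 4.47% lower). With TNF replicate 1 left out edgeR gave 3 of 8, Gsdmd and Casp4 higher and Gsdmc4 lower, against 14.5% of all genes (9.1% higher and 5.4% lower). The median log2 fold change of the 8 genes was 0.28 with all libraries and 0.05 without TNF replicate 1, against 0.00 and -0.01 for all genes tested.

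Levels of different genes were compared per kilobase of the canonical transcript, and the order of genes depends on that length. The length taken was 4122 bases for Pycard and 1531 bases for Casp1, and a shorter transcript would put Pycard higher in both groups. Which transcripts the cells used was not tested. In PBS the order by mean CPM per kilobase was Casp1 (12.7 ± 0.686, SD, n = 3), Pycard (11.9 ± 1.25), Casp4 (9.54 ± 2.29), Naip6 (6.76 ± 2.60), Gsdmd (3.84 ± 0.314), Gsdme (2.30 ± 0.976), Gsdmc4 (1.02 ± 0.917), Il18 (0.576 ± 0.427), Gsdmc2 (0.178 ± 0.0290) and Gsdmc3 (0.0204 ± 0.0354). Neighbours in this order had overlapping ranges except Naip6 above Gsdmd, Gsdmd above Gsdme, Il18 above Gsdmc2 and Gsdmc2 above Gsdmc3. Gsdmd, the fifth in PBS, had the highest mean in TNF at 23.8 ± 18.1 CPM per kilobase, from 2.93 in TNF replicate 1 to 34.9 in TNF replicate 2.

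The genes most alike in pattern were sought among 9767 tested genes whose log2 CPM averaged 2 or more, by the root mean square difference of centred log2 CPM over the 6 libraries, whose depth and cell make-up all genes share. For Gsdmd these were Cpne8 (difference 0.09), Gpx2 (0.17), the gene of an intestinal glutathione peroxidase, and H6pd (0.18). Gpx2, for instance, had 234 to 263 CPM in PBS, 217 CPM in TNF replicate 1, and 2613 and 2657 CPM in TNF replicates 2 and 3. For Casp1 they were Faap24 (0.07), Nsmce4a (0.08) and Pttg1 (0.09), and for Gsdmc4 they were Scin (0.51), Bche (0.72) and Gvin5 (0.74), with much wider differences.

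The wider machinery was read from a list of 83 genes, of which 82 were in the table, 55 were tested and 17 had no count in any library. With all libraries 0 of 55 passed 5% by edgeR, with 18 at an unadjusted p under 0.05, 40 above 0 and a median log2 fold change of 0.49, against 0.00 for all genes tested. With TNF replicate 1 left out, 22 of 56 rose and 2 fell (Nlrp6 and Gsdmc4), against 9.1% and 5.4% of all genes. Of the 55 genes, 12 lay higher in TNF with no overlap, against 9.07% of all genes, and 0 lay lower. The list includes the members and was chosen with earlier results of these data known, so these shares only describe it.

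Among sensors, Nlrp1a, Nlrp3, Nlrp10, Mefv and Ifi204 had no count. Nlrc4, the partner of the NAIP proteins, had 77.8 to 89.8 CPM in PBS against 72.5 to 94.5 CPM in TNF (log2 fold change 0.01, edgeR adjusted p 0.986, and -0.01, adjusted p 0.980, without TNF replicate 1). Aim2, a sensor of cytosolic DNA, had 0.649 to 2.42 CPM in PBS against 2.04, 6.95 and 7.49 CPM across the TNF libraries, and rose without TNF replicate 1 (log2 fold change 2.20, SE 0.51, adjusted p 0.0159). Nlrp6, a sensor known from the intestinal epithelium, had 23.2 to 48.0 CPM in PBS against 38.7, 8.85 and 9.34 CPM across the TNF libraries, and fell without TNF replicate 1 (log2 fold change -1.95, SE 0.30, adjusted p 0.00170). Naip1 was higher in all 3 TNF libraries, at 11.9 to 16.5 CPM against 3.38 to 10.6 CPM, and did not pass 5% with or without TNF replicate 1 (edgeR adjusted p 0.429 and 0.124).

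Without TNF replicate 1, Casp8 rose, as did 3 of 6 tested genes of gasdermins and membrane rupture (Gsdmd, Gsdma and Ninj1), against 9.1% of all genes. Casp8, the initiator caspase of death receptors, had 26.3 to 29.8 CPM in PBS against 30.8 to 45.3 CPM in TNF, with no overlap (log2 fold change 0.50 with all libraries, edgeR adjusted p 0.393, and 0.66 without TNF replicate 1, adjusted p 0.0380). Ninj1, whose protein ruptures the membrane after pore formation, had 17.02 to 23.7 CPM in PBS against 25.8, 42.3 and 53.1 CPM across the TNF libraries, higher in every TNF library (1.05, adjusted p 0.278, and 1.31, adjusted p 0.00254). Gsdma, not among the 10 genes, had 0.801 to 1.30 CPM in PBS against 0.170, 6.41 and 9.02 CPM across the TNF libraries (2.38, adjusted p 0.375, and 2.96, adjusted p 0.00158).

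Of the interleukin-1 family, Il1a, Il36g, Il18rap, Il1r2 and Il1rl1 had no count, and Il1b had 0 to 3 counts per library. Il18bp, which encodes a decoy for interleukin-18, had 2.07 to 4.92 CPM in PBS against 5.18, 12.8 and 11.4 CPM across the TNF libraries, higher in every TNF library (log2 fold change 1.51, edgeR adjusted p 0.288, and 1.83, adjusted p 0.00782, without TNF replicate 1). Il1rn, the gene of the interleukin-1 receptor antagonist, had 0 to 1.03 CPM in PBS against 0.850, 5.38 and 6.52 CPM in TNF (2.95, adjusted p 0.327, and 3.45, adjusted p 0.0175). Il33 had 0 to 1.01 CPM in PBS against 0.0850 to 1.86 CPM in TNF (1.34, adjusted p 0.702, and 1.88, adjusted p 0.337).

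**Figure D4:**
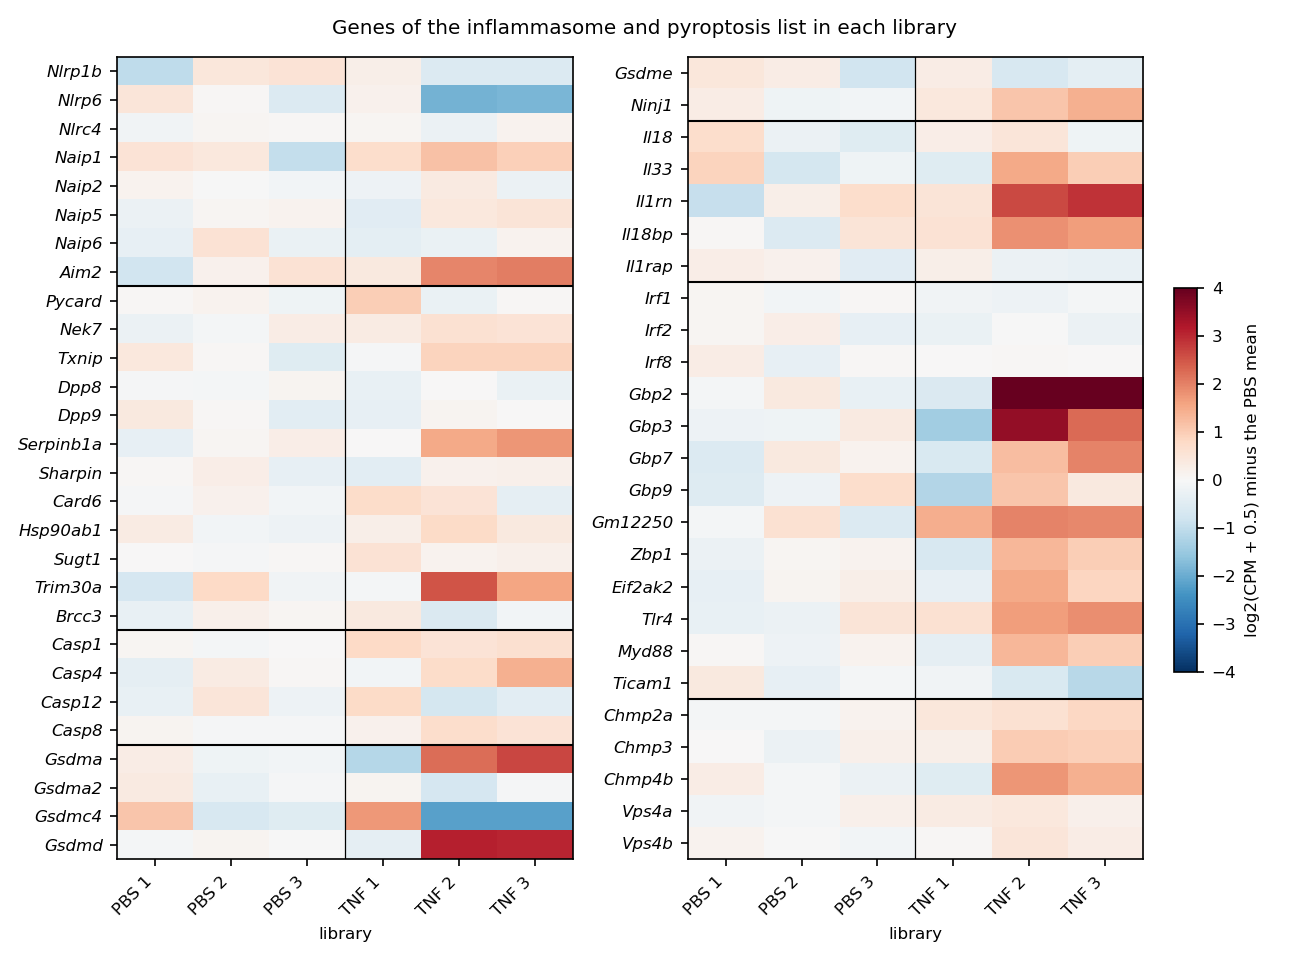
Log2(CPM + 0.5) minus the PBS mean (colour, cut at 4 in either direction) for 53 tested genes of the list (rows, with lines between roles) in the 6 libraries (columns). The medians over these genes are 0.09, 0.60 and 0.52 in the TNF libraries, and Gsdmc4 and Nlrp6 stand out as low in TNF replicates 2 and 3.

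A further role was listed as interferon-inducible activators of inflammasomes. The name is a label of the list only, since the role also holds Tlr4, Myd88 and Ticam1 of Toll-like receptor signalling and factors such as Irf2. Its 13 tested genes had a median log2 fold change of 0.83, against 0.00 for all genes tested. By edgeR over the 6 libraries 0 of the 13 passed 5%, with 4 at an unadjusted p under 0.05, against 12.3% of all genes. Gbp2, a guanylate-binding protein that acts on bacterial membranes, had 0.735 to 1.47 CPM in PBS against 0.510, 48.7 and 37.7 CPM across the TNF libraries (log2 fold change 4.78, edgeR adjusted p 0.270, and 5.37, adjusted p 2.14e-06, without TNF replicate 1). Gm12250 had 0.294 to 1.27 CPM in PBS against 2.63 to 4.01 CPM in TNF, with no overlap (2.28, adjusted p 0.278, and 2.46, adjusted p 0.0324), and Tlr4, the lipopolysaccharide receptor, had 0.361 to 1.03 CPM in PBS against 1.10 to 3.30 CPM in TNF (2.01, adjusted p 0.331, and 2.37, adjusted p 0.0497). DESeq2 with all libraries called 2 of the 55 tested genes of the list, Gbp2 and Gm12250, against 1.71% of all genes. With TNF replicate 1 left out, 9 of the 14 genes of this role rose, Tlr4 and Myd88 included, against 9.1% of all genes. The factors Irf1, Irf2 and Irf8 were not among them, with log2 fold changes of -0.15, -0.20 and 0.00 over all libraries and -0.13, -0.14 and 0.04 without TNF replicate 1.

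Of the regulators, Serpinb1a, a protease inhibitor known to restrain inflammatory caspases, had 87.8 to 133 CPM in PBS against 112, 317 and 377 CPM across the TNF libraries (log2 fold change 1.26, edgeR adjusted p 0.301, and 1.65, adjusted p 0.00112, without TNF replicate 1). Nek7, a partner of NLRP3, had 23.7 to 34.0 CPM in PBS against 35.0 to 42.2 CPM in TNF with no overlap (0.49, adjusted p 0.401, and 0.59, adjusted p 0.0871), and Trim30a had 0 to 0.868 CPM and 0.255 to 4.01 CPM (2.47, adjusted p 0.440, and 2.99, adjusted p 0.0788). Of the ESCRT-III genes, whose products mend gasdermin pores, Chmp4b, Chmp2a and Chmp3 rose without TNF replicate 1. Chmp4b had 48.1 to 68.8 CPM in PBS against 40.1, 191 and 151 CPM across the TNF libraries (1.16, adjusted p 0.371, and 1.61, adjusted p 8.56e-04), while Chmp2a (0.64, adjusted p 0.297, and 0.74, adjusted p 0.0246) and Chmp3 (0.77, adjusted p 0.300, and 1.00, adjusted p 0.00673) were higher in every TNF library. The proteases Gzmb, Elane and Ctsg, and also Usp50, Gsdma3, Gsdmc and Ninj2, had no count.

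Immune cells also express many of these genes. The 10 markers of macrophages, dendritic cells and neutrophils summed to 22.001 to 54.8 CPM in PBS against 36.0 to 45.4 CPM in TNF, and for 0 of the 10 did the groups lie apart. Most of the sum was Lyz2 (13.1 to 27.6 CPM) and Ptprc (3.90 to 33.9 CPM), and which cells these reads came from was not tested. Lyz2 was not checked for reads shared with the PC marker Lyz1, which had 134153 to 226165 CPM. The sum is therefore no measure of immune cells by itself. Cd68 had 0.649 to 1.61 CPM, and Csf1r, Adgre1, Itgax, Itgam and Tyrobp had 0.685 CPM or less in every library. The neutrophil markers had counts in TNF libraries only, Ly6g with 27 counts in TNF replicate 2 and S100a8 with 2 and 4 counts in TNF replicates 2 and 3. The lymphocyte markers summed to 0.403 CPM or less. The part of immune cells in the results was not tested.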

How the data were processed

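RNA from sorted PCs of 3 PBS-injected and 3 TNF-injected mice was sequenced single-end on the AVITI instrument of Element. The authors deposited a table of raw read counts for Ensembl genes in which each library has its column, none (0) being unused. The processing notes of the submitters name FastQC, Trimmomatic 0.39, STAR 2.7.10a, DESeq2 and build mm39. The counting tool, annotation, use of strand and handling of shared reads are, in the sources used here, not given, so near copies and overlapping genes are uncertain. Symbols and positions came from GENCODE for GRCm39, matching 54749 of 55414 identifiers. Totals were 12747484 to 17039511 counts, and intervals and limits cover counting error only.

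Groups came from the labels. TNF was compared with PBS in R 4.3.3 with edgeR 4.0.16 (filterByExpr with minimum count 10 and minimum total 15, TMM factors, quasi-likelihood test, two-sided, Benjamini-Hochberg over 13026 genes, threshold 5%). The SE was derived from the F statistic (log2 fold change over root F). Scripts were tested on simulated data. Alternatives were RLE factors, total counts alone, no filter, a mean CPM of at least 5, DESeq2 1.42.0 on the filtered genes, limma-voom (limma 3.58.1) without and with sample weights, a 1% threshold, a replicate block and leaving out each library. The members, gene lists and tests were chosen with earlier results of these data known. Each library came from a different mouse. Outside the 10 members, named genes were the 3 with the smallest unadjusted p in each role, those with no count, and the 3 most alike to Gsdmd, Casp1 and Gsdmc4. Some of these are not reported here. Nlrc4, Il1b, Irf1, Irf2, Irf8 and the cell type markers other than those with no count were named after their values were seen. Shared windows are exact matches of 100 bases (50 where stated) of the canonical transcript in transcripts of other genes, on either strand.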

Additional observations from a re-analysis of the deposited data

How the results depend on the processing

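The count of genes past 5% was 0 under RLE factors, total counts alone, the mean CPM filter, limma-voom, the replicate block and the 1% threshold. It became 690 without a filter, 223 with DESeq2, 1501 with sample weights, and 0 to 1980 when 1 library was left out, the highest without TNF replicate 1. The 10 genes gave 1 call without a filter (Gsdmd), 3 with sample weights (Casp1, Casp4 and Gsdmd), and 0 to 3 when 1 library was left out. The wider list gave 12 of 65 without a filter (2.94% of all genes), 2 of 55 with DESeq2 (1.71%) and 17 of 55 with sample weights (11.5%). It gave 0 to 24 when 1 library was left out, the highest without TNF replicate 1 (14.5% of all genes). The summed Gsdmc genes, at 0.51, turned to -3.15 with limma-voom, -4.28 with sample weights and -2.08 with the replicate block, and ran from -6.04 to 1.29 with 1 library left out. Gsdmc4, at 0.09, turned to -0.22 with total counts alone, -3.55 with limma-voom, -4.36 with sample weights and -2.32 with the replicate block, and ran from -7.99 to 1.15 with 1 library left out, turning without PBS replicate 2 (-0.27), PBS replicate 3 (-0.25) or TNF replicate 1 (-7.99). With 1 library left out Pycard ran from -0.091 to 0.56 (-0.091 without TNF replicate 1), Naip6 from -0.41 to 0.13 and Il18 from -0.18 to 0.98 (-0.02 without PBS replicate 2, -0.18 without PBS replicate 3, and -0.09 once TNF replicate 2 was removed). The fold changes of Gsdmd, Gsdme, Casp1 and Casp4 kept their direction in every setting that tested them. The cause of these shifts was not tested. The replicate block gave 0 genes past 5%, with 1395 at an unadjusted p under 0.05 against 1596 without it. Deviations of same-numbered libraries from their group means correlated at -0.01, -0.07 and 0.03, and not every library correlated best with its own number. With 3 libraries in a group and TNF replicate 1 apart from its own, these values cannot decide whether the numbers pair the libraries. The difference in the Gsdmd share kept its direction when counts were divided by length and, at 16.1 to 48.4 percentage points, when a library was left out. Low counts limit Il18 and the Gsdmc genes.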
